A study of Mus musculus with 50 samples.

Results

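The 10 genes described here encode the RIP kinases RIPK1, RIPK2 and RIPK3 and the TNF receptor proteins that act with them in cell death signalling: Tnfrsf1a, Tnfrsf1b, Tradd, Fadd, Ripk1, Ripk2, Ripk3, Casp8, Cflar and Mlkl. They were chosen by gene symbol, each symbol matched 1 gene, and they are 10 of the 53700 genes in the count files. All 10 were among the 16696 genes with at least 1 CPM (counts scaled to the total of a library) in more than 2 mice, which were tested.

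When TNF binds TNFR1, the adaptor TRADD and the kinase RIPK1 assemble at the receptor, and ubiquitin chains on RIPK1 direct the signal to NF-kB and survival. If that complex is not held in check, FADD and caspase-8 can start apoptosis, and cFLIP, the product of Cflar, dampens caspase-8. Where caspase-8 is blocked, RIPK1 can engage RIPK3, which phosphorylates MLKL, and MLKL breaks the plasma membrane in necroptosis. Microglia are both a source and a target of TNF in the brain.

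Microglia of 50 male C57BL/6J mice were sorted from the hippocampus by their CD45int CD11b+ surface profile, with 1 poly-A library sequenced per mouse. ELS mice were reared with limited bedding and nesting material from P2 to P9, and CTR mice were reared in standard cages. Whole litters, not single pups, were assigned to a rearing condition. One cohort was killed at P9, with 12 mice in the P9-CTR and 13 in the P9-ELS group. Another was kept until P200 and killed 3 h after an intraperitoneal injection of PBS (CTR-PBS, n = 7; ELS-PBS, n = 6) or of LPS at 1 mg/kg (CTR-LPS, n = 7; ELS-LPS, n = 5). LPS is a bacterial cell wall component that TLR4 detects. The hippocampi of adults, but not of P9 mice, passed a Percoll step that removes myelin.

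Library totals ran from 5152838 to 42231258 counts. In 3 libraries few genes were detected: 12482 and 15731 in a pair of P9-ELS mice, and 12854 in a single CTR-PBS mouse. The other 47 libraries detected 16485 to 21100. The 10 microglia markers (Tmem119, P2ry12, Cx3cr1 and others) summed to between 32589 and 77622.8 CPM per mouse. The 8 neutrophil markers summed to at most 9.17 CPM in any adult mouse and to between 9.08 and 30.9 CPM at P9, and Ly6g and Retnlg were at 0 in every mouse. The 6 markers of border macrophages summed to 470.4 to 919 CPM at P9 and to 1.80 to 11.8 CPM at P200. The 8 neuron markers summed to medians of 150.3 CPM (CTR) and 98.9 CPM (ELS) at P9, and of 6.67 and 6.75 CPM with PBS at P200. The 6 astrocyte markers had medians of 332 CPM with PBS and 572 CPM with LPS in CTR mice, and of 392 and 524 CPM in ELS mice. The part of these cells in the differences with age and with LPS was not tested. Age, the cohort, the Percoll step and the injection, which only adults received, cannot be told apart. In bulk RNA, a lower level in each cell and fewer cells that express a gene cannot be told apart.

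The members differed widely in level. Per kb of exon, Casp8, the initiator caspase of the pathway, had the highest mean in P9-CTR (73.9 CPM per kb) and in CTR-PBS mice (104 CPM per kb). The receptors followed, with 61.5 CPM per kb for Tnfrsf1a and 55.16 CPM per kb for Tnfrsf1b in CTR-PBS mice. The adaptors Tradd and Fadd stood at 10.3 and 7.73 CPM per kb in that group, Cflar at 6.33, Ripk2 at 4.42 and Ripk3 at 3.18. Ripk1 had a mean of 0.834 CPM per kb and Mlkl, the executioner of necroptosis, of 0.11 CPM per kb. Mlkl was lowest and Ripk1 second lowest in all 6 groups. Since the isoforms in use are not known, the order was also computed per kb of the canonical transcript. Casp8 then led in all groups without LPS too and Mlkl was again lowest in all 6 groups, but Ripk1 passed Ripk3 after LPS (5.33 against 5.11 CPM per kb in CTR-LPS) and Tnfrsf1a passed Tnfrsf1b at P9 and in ELS-PBS mice.

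**Figure D1:**
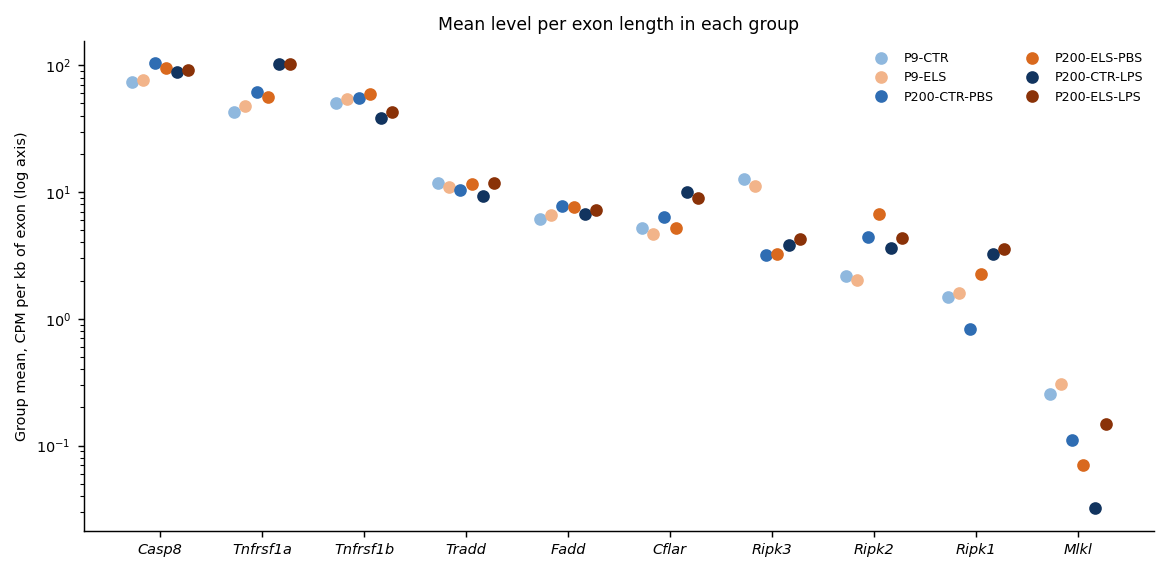
Mean level of each gene in each group, in CPM per kb of exon on a log axis, with genes ordered by their mean over groups. Casp8 and both receptors lie between 38.4 and 104 CPM per kb, and Mlkl lies at 0.305 CPM per kb or lower in every group.

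Promoter windows from RefSeq (build GRCm38.p6, from 250 bases before to 50 after a start) were found for 8 of the 10 members, in 9 windows because Ripk1 has a pair of them. Each matched GRCm39 at 1 place. The 250 bases before the start are shown for the 3 members called with LPS, 5′ to 3′ in the direction of transcription, with positions on GRCm39 and motif matches in capitals. The windows are at chr13:34186096-34186345 and chr13:34186607-34186856 (Ripk1, plus strand), chr1:58750400-58750649 (Cflar, plus strand) and chr6:125326436-125326685 (Tnfrsf1a, plus strand).
Ripk1, first window: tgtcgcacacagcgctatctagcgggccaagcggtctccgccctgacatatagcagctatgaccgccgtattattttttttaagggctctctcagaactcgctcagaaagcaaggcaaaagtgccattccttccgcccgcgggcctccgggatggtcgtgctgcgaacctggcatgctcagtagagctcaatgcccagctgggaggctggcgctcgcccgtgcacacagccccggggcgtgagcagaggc
Ripk1, second window: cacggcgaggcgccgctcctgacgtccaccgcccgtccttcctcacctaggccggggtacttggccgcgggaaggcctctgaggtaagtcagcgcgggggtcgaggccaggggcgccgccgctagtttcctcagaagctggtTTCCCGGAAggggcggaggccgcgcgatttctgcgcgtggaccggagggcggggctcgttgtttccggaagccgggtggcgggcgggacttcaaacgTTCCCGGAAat
Cflar: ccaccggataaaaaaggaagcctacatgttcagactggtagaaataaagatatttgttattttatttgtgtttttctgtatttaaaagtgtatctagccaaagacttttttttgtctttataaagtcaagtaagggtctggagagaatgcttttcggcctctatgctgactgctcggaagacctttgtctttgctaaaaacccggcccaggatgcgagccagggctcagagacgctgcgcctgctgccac
Tnfrsf1a: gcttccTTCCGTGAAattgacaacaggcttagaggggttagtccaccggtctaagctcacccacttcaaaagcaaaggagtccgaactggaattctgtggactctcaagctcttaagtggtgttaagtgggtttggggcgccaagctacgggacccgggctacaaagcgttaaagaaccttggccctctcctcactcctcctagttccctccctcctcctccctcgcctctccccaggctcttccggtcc

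Capitals mark the GAS motif TTCNNNGAA, the binding motif of STAT proteins. It was present on both strands, since its letters read the same on the other strand, in the second Ripk1 window at -108 to -100 and -11 to -3 from the start, in the Tnfrsf1a window at -244 to -236 and in the Tnfrsf1b window at -181 to -173. It occurs before the start in 7.02% of all 32851 windows. The first Ripk1 window and the part of the Cflar window shown held none of the 4 motifs searched. The interferon response element core GAAANNGAA, searched on both strands, occurs in 8.56% of all windows and was found in those of Cflar, Ripk3 and Tnfrsf1b and in the second of Ripk1, across or after the start in all but Tnfrsf1b. In Ripk1 it overlaps the GAS match nearest the start. The kappaB motif (4.51% of all windows) and the AP-1 motif TGANTCA (7.81%) were in none of the 9 windows, which says only that these letters are not within 250 bases before and 50 after these starts.

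On GRCm39 the genes other than Ripk1 lie at chr6:125325566-125339632 (Tnfrsf1a), chr4:144938938-144973477 (Tnfrsf1b), chr8:105984883-105996354 (Tradd), chr7:144131055-144136211 (Fadd), chr4:16121400-16163796 (Ripk2), chr14:56022452-56026324 (Ripk3), chr1:58834375-58886665 (Casp8), chr1:58750321-58798047 (Cflar) and chr8:112036296-112065168 (Mlkl). Cflar and Casp8 both lie on the plus strand of chromosome 1.

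Tnfrsf1a, which encodes TNFR1, the receptor form with a death domain, rose after LPS in mice of both rearing conditions. All levels given are of RNA, and protein levels of the members are not part of these data. In CTR-PBS mice Tnfrsf1a was between 153 and 243 CPM with a median of 193 CPM, and with LPS between 199 and 488 CPM (median 319 CPM). The upper CTR-PBS mice reached into the range of the lower CTR-LPS mice. The log2 fold change was 0.73 (SE 0.23, adjusted p = 0.0252, edgeR's quasi-likelihood test with Benjamini-Hochberg adjustment over all genes tested, as for every adjusted p here). In ELS-PBS mice the level was between 117 and 252 CPM with a median of 175 CPM, and the 5 ELS-LPS mice had 247, 262, 341, 363 and 410 CPM. A single ELS-PBS mouse stood above the lowest ELS-LPS mouse, and the log2 fold change was 0.87 (SE 0.26, adjusted p = 0.0190, edgeR). These calls are near the threshold. The adjusted p reached 0.0905 in CTR without mouse P200_8.2_CTR_LPS (0.0538 and 0.0556 without P200_15.1_CTR_PBS and P200_18.1_CTR_PBS) and 0.0645 in ELS without mouse P200_2.2_ELS_LPS (0.0548 without P200_17.1_ELS_PBS). Tnfrsf1a was also higher at P200 than at P9 in CTR mice (log2 fold change 0.53, SE 0.20, adjusted p = 0.0317, edgeR), from 134 ± 23.4 CPM (SD, n = 12) to 194 ± 32.9 CPM (n = 7). That call was lost without mouse P200_1.1_CTR_PBS, P200_5.1_CTR_PBS or P200_5.2_CTR_PBS (adjusted p from 0.0521 to 0.0749), and with limma voom with the number in the mouse label as a random effect (0.0572).

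Tnfrsf1b, which encodes TNFR2, a receptor without a death domain, had lower means after LPS, but the difference did not pass the test. Its mean level in CTR mice was 273 ± 48.8 CPM with PBS (SD, 7 mice) against 190 ± 79 CPM with LPS (7 mice) (log2 fold change -0.52, SE 0.27, adjusted p = 0.208, edgeR). In ELS mice it was 294 ± 101 CPM (n = 6) with PBS and 214 ± 53.14 CPM (n = 5) with LPS (log2 fold change -0.46, SE 0.31, adjusted p = 0.376, edgeR). The ratio of the receptors within a mouse, a measure chosen after the values were seen, separated the treatments fully. Per kb of exon, Tnfrsf1b over Tnfrsf1a was between 0.774 and 1.09 in CTR-PBS mice and between 0.207 and 0.593 in CTR-LPS mice. It was between 0.721 and 1.29 in ELS-PBS mice, and in ELS-LPS mice it was between 0.333 and 0.496. The mean log2 ratio fell by 1.29 in CTR and by 1.31 in ELS mice. The size of the ratio depends on the gene lengths used, while these falls do not. As the groups do not overlap and the measure was chosen after the values were seen, the falls are given with no p. Between ELS and CTR the ratio did not differ beyond the spread of the mice with PBS (exact permutation test over mice, two-sided p = 0.179) or with LPS (exact permutation p = 0.485). Without mouse P200_20.2_ELS_PBS the PBS difference was 0.30 on the log2 scale (exact permutation p = 0.0303, not adjusted).

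**Figure D2:**
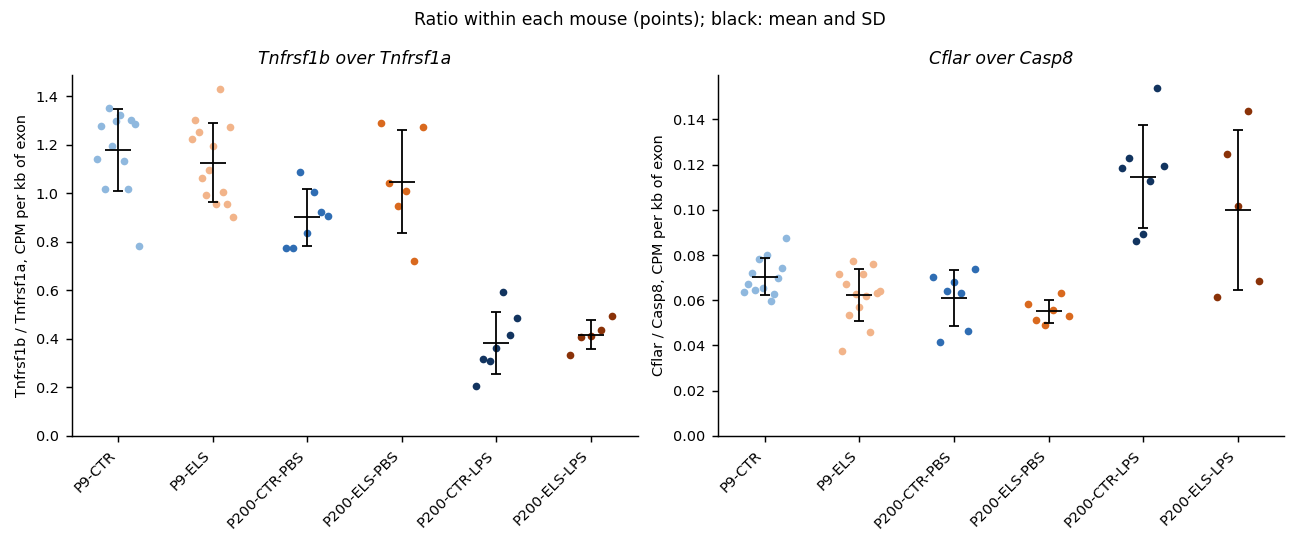
Ratio of Tnfrsf1b to Tnfrsf1a (left) and of Cflar to Casp8 (right) within each mouse, from CPM per kb of exon. Points are mice and black marks give the mean and SD of a group. All CTR-LPS and ELS-LPS mice lie at or below 0.593 for the receptor ratio, and all PBS mice at or above 0.721.

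The adaptors Tradd and Fadd, which link death domains of receptors and kinases to RIPK1 and to caspase-8, passed the test in no comparison. Tradd was between 13.2 and 34.2 CPM over all 50 mice, with group means between 21.4 and 27 CPM. Fadd was between 18.4 and 43.3 CPM, with group means between 24 and 30.3 CPM. In CTR mice Fadd was 0.33 higher at P200 than at P9 on the log2 scale (SE 0.15, adjusted p = 0.0575, edgeR), near the threshold. It passed with DESeq2 size factors (adjusted p = 0.0481), filterByExpr (0.0181), only the groups compared (0.0313) and DESeq2 (0.0351), without the 3 libraries with few detected genes (0.0160) and without mouse P200_1.1_CTR_PBS alone (0.0252). Exons of Tradd and Fadd lie partly on exons of genes on the other strand (Fbxl8 and Hsf4, and Faddos). The strand setting of the counting is not given in the sources used here, so that reads from such bases cannot be assigned.

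Ripk1 showed the largest differences of the kinases between adult groups. The gene lies on chromosome 13 of GRCm39 from 34186141 to 34221130 on the plus strand, and 511 of its 10993 exon bases are shared with the processed pseudogene Gm17084 and 241 with Serpinb6a on the other strand. In CTR-PBS mice its level was between 2.90 and 14.4 CPM with a median of 10.6 CPM. In ELS-PBS mice it was between 16.2 and 32.1 CPM with a median of 24.7 CPM, so that every ELS-PBS mouse stood above every CTR-PBS mouse. After LPS, CTR mice had 14.2 to 61 CPM with a median of 39.4 CPM, and the 5 ELS mice had 26.9, 30.5, 35.7, 41.9 and 60.4 CPM. The LPS groups overlapped over most of their range, while the lowest CTR-LPS mouse (14.2 CPM) was just below the highest CTR-PBS mouse (14.4 CPM).

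With LPS, Ripk1 was 3.92-fold higher in CTR mice (log2 fold change 1.97, SE 0.32, adjusted p = 6.0e-06, edgeR), and this call held without any single mouse. In ELS mice the log2 fold change was 0.66 (SE 0.35, 95% interval -0.03 to 1.35, adjusted p = 0.240, edgeR), from 24.7 ± 6.61 CPM (SD, n = 6) to 39.1 ± 13.2 CPM (n = 5), and the groups overlapped between 26.9 and 32.1 CPM. The test of the difference between these responses gave a log2 value of -1.31 (SE 0.48, unadjusted p = 0.00815, adjusted p = 0.558, edgeR), so that a different response of ELS mice did not pass the correction over all genes.

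Between ELS and CTR mice with PBS, Ripk1 was 2.69-fold higher (log2 fold change 1.43, SE 0.33, adjusted p = 0.0466, edgeR), a difference already known when these genes were chosen. It was the single member of the 10 called in that comparison, in which 0.168% of all genes tested were called, and the single member whose groups did not overlap, against 0.323% of all genes. The size was stable but the call was not. When each of the 13 mice was left out in turn, the log2 fold change stayed between 1.27 and 1.57 while the adjusted p ranged from 0.0203 to 0.118 and was under 0.05 in 2 of 13 fits, those without mouse P200_15.1_CTR_PBS or P200_17.2_ELS_PBS. Under 8 other settings of the analysis the adjusted p was between 0.00625 and 0.203, with a call in 3. Those were edgeR's likelihood-ratio test, DESeq2 and the fit without the 3 libraries with few detected genes. The lowest value, 2.90 CPM, belonged to the CTR-PBS mouse with few detected genes (P200_1.1_CTR_PBS), and without it the log2 fold change was 1.27 (adjusted p = 0.113, edgeR). With LPS the difference was 0.12 (SE 0.34, 95% interval -0.54 to 0.79, adjusted p = 1, edgeR).

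Mouse labels hold a number before a point that several mice of a rearing condition share, and its meaning is not given in the sources used here. The 12 P9-CTR mice held 5 such numbers and the 13 P9-ELS mice held 4. Rearing was assigned per litter, but the edgeR tests count each mouse as independent. Where mice of a group share a litter, the p-values of ELS against CTR can be too small. Averaged over mice with the same number, Ripk1 was 4.68 ± 0.37 log2 CPM (SD, n = 5 numbers) in ELS-PBS and 2.98 ± 0.87 log2 CPM (n = 5) in CTR-PBS mice. The difference was 1.70, and as the mice of these groups do not overlap, it is given with no test. With LPS the means were 5.23 ± 0.45 and 4.99 ± 0.66 log2 CPM (exact permutation p = 0.587). Within a shared number, mice with LPS had more Ripk1 than those with PBS in all 5 CTR numbers and in all 5 ELS numbers. The nearest means in CTR were 10.7 CPM with PBS and 14.2 CPM with LPS (number 5), and the farthest were 6.95 and 41.7 CPM (number 8). Number 1 had the widest ratio, with 2.90 and 34.4 CPM, but its PBS mouse was the one with few detected genes. In ELS mice the nearest were 22.3 and 26.9 CPM for number 2, and the farthest 31.6 and 60.4 CPM for number 20.

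**Figure D3:**
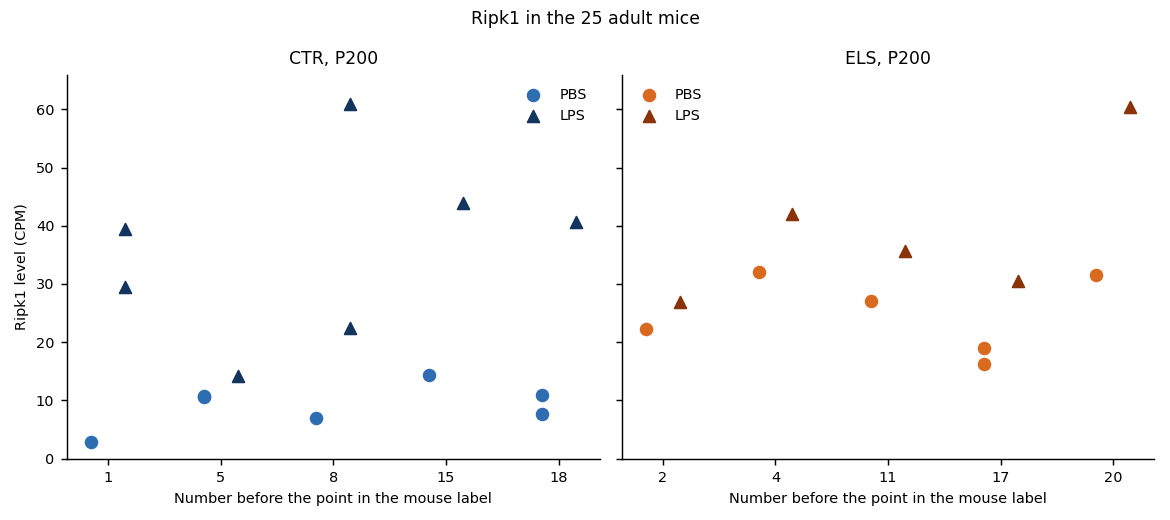
Level of Ripk1 in CPM in each of the 25 adult mice, by the number before the point in the mouse label, for CTR (left) and ELS (right). Circles are mice with PBS and triangles mice with LPS. CTR circles lie at or below 14.4 CPM and ELS circles at or above 16.2 CPM.

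At P9, Ripk1 did not separate the rearing conditions, with 10.1 to 27.2 CPM in CTR and 8.09 to 38.4 CPM in ELS mice (medians 15.22 and 14.5 CPM). From P9 to P200 it was lower in CTR mice (log2 fold change -0.84, SE 0.29, adjusted p = 0.0146, edgeR), and limma voom with the label number as a random effect lost that call (adjusted p = 0.0558). In ELS mice it was 0.50 higher in value (SE 0.28, adjusted p = 0.158, edgeR), or 0.59 without the 3 libraries with few detected genes (adjusted p = 0.0476). The difference between the age changes was 1.34 on the log2 scale (SE 0.40, unadjusted p = 0.00157, adjusted p = 0.260, edgeR). It was not called in Ripk1 or any other member (0 of 10 in edgeR and in DESeq2), against 0.0299% of all genes. At an unadjusted p under 0.05 there were 1 member and 1712 of all genes.

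Among the 8273 tested genes with a mean log2 CPM of at least 3, the patterns most like Ripk1 over the 25 adult mice were those of Fbxw2, an F-box protein (Pearson r = 0.888), Cebpd, a transcription factor of the acute phase (0.882), Marcksl1 (0.880), Zbtb2 (0.860) and Txnrd1, thioredoxin reductase (0.851). These values span groups that differ by treatment, and they are given as a description. The other members ranged from r = -0.54 for Casp8 to r = 0.54 for Ripk3.

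Ripk2, the kinase of the NOD1 and NOD2 pathway, was higher in adults than at P9 in both rearing conditions. In CTR mice it was between 4.26 and 21.7 CPM at P9 and between 8.01 and 43.9 CPM with PBS at P200 (log2 fold change 1.03, SE 0.30, adjusted p = 0.0042, edgeR). In ELS mice it was between 2.33 and 19.8 CPM at P9 and between 25.9 and 59.3 CPM at P200, without overlap (log2 fold change 1.74, SE 0.30, adjusted p = 5.5e-06, edgeR). With PBS, Ripk2 was 0.61 higher in ELS than in CTR mice on the log2 scale (SE 0.35, adjusted p = 0.630, edgeR), and the groups overlapped between 25.9 and 43.9 CPM. LPS gave log2 values of -0.30 in CTR and -0.62 in ELS mice, with 11, 19.7, 23.1, 25.3 and 49 CPM in the ELS-LPS mice, and neither passed the test.

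Ripk3, the kinase that activates MLKL, showed the largest change of the RIP kinases with age. In P9-CTR mice it was between 18.9 and 39.9 CPM with a median of 33 CPM, and in CTR-PBS mice between 0 and 13.5 CPM with a median of 8.29 CPM. All adults stood below all P9 mice, and the log2 fold change was -2.0 (SE 0.34, adjusted p = 4.4e-06, edgeR). In ELS mice the range was 18.4 to 37.4 CPM at P9 and 2.83 to 13.8 CPM at P200, again without overlap (log2 fold change -1.78, SE 0.36, adjusted p = 6.3e-05, edgeR). The count of 0 was that of the CTR-PBS mouse with few detected genes, and without it the CTR value was -1.78, while limma voom gave -3.01 with all mice. LPS moved Ripk3 by 0.26 in CTR and 0.41 in ELS mice on the log2 scale, and neither passed the test.

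Casp8, whose product caspase-8 cleaves RIPK1 and RIPK3, did not pass the test with LPS but rose with age. Casp8 was between 283 and 363 CPM in CTR-PBS and between 228 and 315 CPM in CTR-LPS mice, with wide overlap (log2 fold change -0.25, SE 0.11, adjusted p = 0.139, edgeR). In ELS mice it was between 268 and 332 CPM with PBS, and the LPS mice had 244, 269, 285, 305 and 318 CPM (log2 fold change -0.04, SE 0.13, adjusted p = 0.892, edgeR). With age it rose in CTR mice, from 188 to 255 CPM at P9 to 283 to 363 CPM at P200, without overlap (log2 fold change 0.50, SE 0.10, adjusted p = 4.5e-05, edgeR). In ELS mice the rise was 0.30 (SE 0.10, adjusted p = 0.0157, edgeR), and 1 P9-ELS mouse, from a library with few detected genes, had 405 CPM. Without mouse P200_17.1_ELS_PBS the adjusted p was 0.0538, and with only the groups compared in the fit it was 0.132.

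Cflar, which encodes the caspase-8 partner cFLIP, rose with LPS in both conditions. It was between 69.2 and 120 CPM in CTR-PBS mice with a median of 90.7 CPM, and after LPS between 109 and 191 CPM (median 139 CPM). The groups touched between 109 and 120 CPM, and the log2 fold change was 0.66 (SE 0.14, adjusted p = 3.9e-04, edgeR). In ELS-PBS mice it was between 66.6 and 81.7 CPM, and the ELS-LPS mice had 81.9, 102, 145, 158 and 164 CPM. All of the latter were above all of the former, the lowest by a small margin, and the log2 fold change was 0.79 (SE 0.16, adjusted p = 2.25e-04, edgeR). Both calls held without any single mouse. Per kb of exon the ratio of Cflar to Casp8 rose from 0.0611 ± 0.0123 (SD, n = 7) to 0.115 ± 0.0228 (n = 7) in CTR mice, without overlap (log2 difference 0.91). In ELS mice it went from 0.0551 ± 0.00514 (n = 6) to 0.1 ± 0.0355 (n = 5), with overlap (log2 difference 0.79). This ratio, too, was chosen after the values were seen, and its differences are given with no p. Its size depends on the gene lengths used, while its log2 differences do not. Cflar has 14458 exon bases but 7017 in the canonical transcript, and Casp8 has 3081 and 2741. With PBS, Cflar was 0.28 lower in ELS than in CTR mice on the log2 scale (SE 0.15, unadjusted p = 0.0596, adjusted p = 0.549, edgeR). With age it was 0.28 higher in CTR mice (SE 0.12, adjusted p = 0.0569, edgeR), from 75.2 ± 10.2 CPM (SD, n = 12) to 91.5 ± 18.5 CPM (n = 7), and 0.15 higher in ELS mice (adjusted p = 0.352). The CTR value passed the threshold with filterByExpr (adjusted p = 0.0148), with only the groups compared (0.0359), with DESeq2 (0.0475), and without mouse P200_5.2_CTR_PBS (0.0293) or P200_15.1_CTR_PBS (0.0268).

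Mlkl, the membrane-disrupting target of RIPK3, was near the lower limit of the data, and 672 of its 5792 exon bases lie on Gm63800 on the other strand. Counts were 0 in 1 of 7 CTR-PBS, 3 of 7 CTR-LPS, 3 of 6 ELS-PBS and none of 5 ELS-LPS mice, and the highest count in any adult was 32. In CPM, CTR-LPS mice lay between 0 and 0.675 with a median of 0.0487 CPM, and the ELS-LPS mice had 0.329, 0.433, 0.468, 0.927 and 2.14 CPM. The fitted log2 difference between them was 2.18 (SE 0.98, unadjusted p = 0.0301, adjusted p = 0.965, edgeR), and the groups overlapped. From P9 to P200 it fell in ELS mice by 2.1 on the log2 scale (SE 0.88, adjusted p = 0.0487, edgeR), from 1.76 ± 1.52 CPM (SD, n = 13) to 0.408 ± 0.493 CPM (n = 6). In CTR mice the same value was -1.21 (SE 0.80, adjusted p = 0.223, edgeR). The ELS call rests on few counts, and in 4 of 6 fits that left out an adult mouse the adjusted p was above 0.05 (up to 0.105), those without mouse P200_2.1_ELS_PBS, P200_17.1_ELS_PBS, P200_17.2_ELS_PBS or P200_20.2_ELS_PBS. The call was also lost without a filter on low counts (adjusted p = 0.0764), with filterByExpr (0.0523) and with only the groups compared (0.0879).

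**Figure D4:**
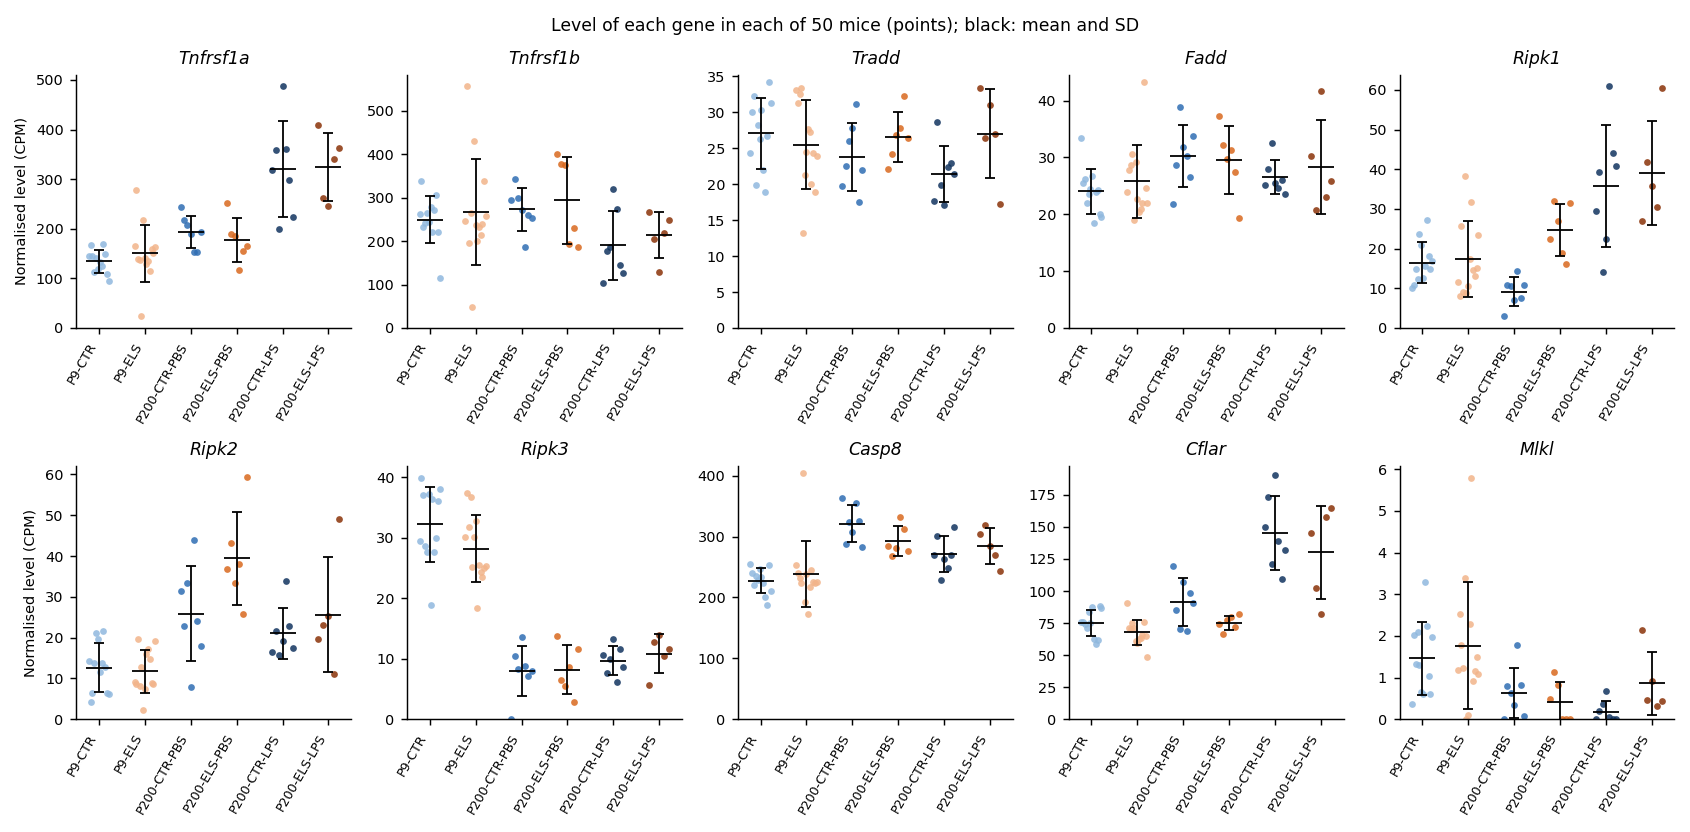
Level in CPM of each of the 10 genes in each of the 50 mice, by group. Points are mice, and black marks give the mean and SD. Ripk3 is at or above 18.4 CPM in all P9 mice and at or below 13.9 CPM in all adults, and the ELS-PBS mice stand above the CTR-PBS mice for Ripk1.

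Between ELS and CTR mice, Ripk1 with PBS, given above, was the single call among the members. At P9, 0 of 10 members were called (edgeR), as were 0% of all genes, and 0 members had an unadjusted p under 0.05 while 914 of all genes did. With LPS at P200, 0 of 10 were called (0% of all genes), 1 member (Mlkl) and 798 of all genes had an unadjusted p under 0.05, and DESeq2 called 0 members in both comparisons. At P9 the estimates lay between -0.19 and 0.28, and the 95% intervals for all but Mlkl lay within -0.71 to 0.55 on the log2 scale. The test of a different LPS response called 0 of 10 members and 0% of all genes, with 2 members and 980 of all genes at an unadjusted p under 0.05 and 0 members by DESeq2.

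After LPS in CTR mice, 3 of 10 members rose (Ripk1, Cflar and Tnfrsf1a), against 8.73% of all genes, and 0 fell, against 6.2% of all genes (Casp8 was lower at an unadjusted p of 0.0321, edgeR). Groups did not overlap for 0 of 10, against 7.49% of all genes. In ELS mice 2 of 10 rose (Cflar and Tnfrsf1a), against 7.4%, and 0 fell, against 4.94%. The groups did not overlap for 1 of 10, against 10% of all genes. With age in CTR mice, 5 of 10 changed, against 44.1% of all genes, of which Ripk2, Casp8 and Tnfrsf1a rose and Ripk1 and Ripk3 fell. The groups did not overlap for 1 member that was higher (Casp8), against 6.56% of all genes, and for 1 that was lower (Ripk3), against 10.5%. With age in ELS mice, 4 of 10 changed, against 42.2%, of which Ripk2 and Casp8 rose and Ripk3 and Mlkl fell. The groups did not overlap for 1 higher member (Ripk2), against 4.6%, and for 1 lower member (Ripk3), against 7.03%. The share of members changed with age was near that of all genes. With LPS the share called higher was above that of all genes, while the share without overlap was not. As the members were chosen with earlier results of these data known, these shares are a description and no result about the set. The median log2 fold change over the members was -0.17 with LPS in CTR and 0.22 in ELS mice, against 0.00 and -0.04 over all genes. The LPS and age comparisons of a rearing condition and the comparison of ELS with CTR mice given PBS share PBS mice and are not independent.

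**Figure D5:**
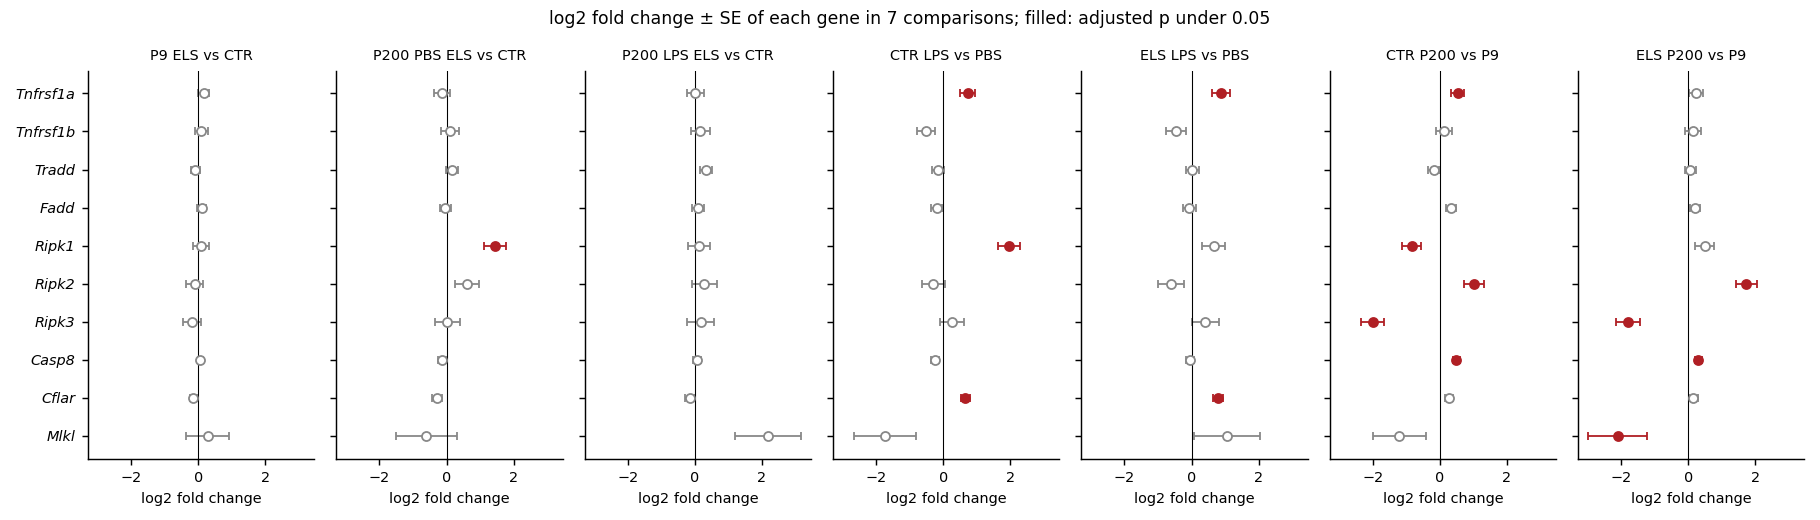
log2 fold change with its SE for each of the 10 genes in 7 comparisons. Filled red points have an adjusted p under 0.05 in edgeR's quasi-likelihood test and open grey points do not. Ripk1 is filled in the comparison of ELS with CTR mice given PBS, and no gene is filled at P9 or between the LPS groups.

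Of 61 genes listed around the members (ligands, receptors, ubiquitin enzymes, further inputs and effectors), 56 were tested. None was called between ELS and CTR mice at P9, with PBS or with LPS, or in either test of a difference between responses (edgeR). At an unadjusted p under 0.05 there were 2 of 56 in each of the 3 comparisons of ELS with CTR mice, 1 in the test of the LPS response and 4 in that of the age change. With LPS, 10 of 56 rose in CTR mice, against 8.73% of all genes, and 3 fell, against 6.2%. In ELS mice 10 rose, against 7.4%, and 2 fell, against 4.94%, so that the share that fell was near or below that of all genes. Tnf, the ligand itself, rose from 2.84 ± 1.62 CPM (SD, n = 7) to 259 ± 120 CPM (n = 7) in CTR mice (log2 fold change 6.50, SE 0.60, adjusted p = 2.4e-12, edgeR) and from 3.15 ± 1.44 CPM (n = 6) to 302 ± 234 CPM (n = 5) in ELS mice (log2 fold change 6.59, SE 0.66, adjusted p = 3.4e-11, edgeR).

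Of 6 further TNF family receptors (Fas, Tnfrsf10b, Tnfrsf21, Tnfrsf25, Tnfrsf12a and Ltbr, of which Tnfrsf12a and Ltbr carry no death domain), 3 rose with LPS in each condition. Of all genes, 8.73% rose in CTR and 7.4% in ELS mice. The lists were chosen with earlier results known, so their counts are a description. Fas, the receptor of Fas ligand, stood at 34.6 ± 18.8 CPM after LPS and at 1.39 ± 0.41 CPM after PBS in CTR mice (SD, 7 mice each), and the log2 fold change was 4.63 (adjusted p = 6.0e-10, edgeR). The log2 fold change in ELS mice was 5.06. Tnfrsf12a, the receptor of TWEAK, rose by 2.66 in CTR and 2.54 in ELS mice. Ltbr rose by 1.17 in CTR mice, and its value in ELS mice was 0.52 (adjusted p = 0.503, edgeR). Tnfrsf25 passed the test in ELS mice, where all 6 PBS mice had a count of 0 and the LPS mice reached 1.62 CPM at most.

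Of 23 genes of the TNF receptor complex and its ubiquitin enzymes, 3 rose in CTR and 4 in ELS mice with LPS, and none fell. Of all genes, 8.73% rose and 6.2% fell in CTR mice, and 7.4% rose and 4.94% fell in ELS mice. Birc3, the ubiquitin ligase cIAP2 that marks RIPK1, rose from 60.4 ± 30.8 to 376 ± 56.1 CPM in CTR mice (SD, n = 7 each; log2 fold change 2.64, adjusted p = 1.5e-11, edgeR), and by 3.19 on the log2 scale in ELS mice. Tnfaip3, the ubiquitin editing enzyme A20, rose by 3.57 and 3.60. Tnip1, an A20 partner, rose by 1.32 in CTR and 1.35 in ELS mice. Mapkapk2, the kinase MK2 that phosphorylates RIPK1, rose by 1.56 in ELS mice, and its value in CTR mice was 0.59 (adjusted p = 0.102, edgeR).

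Of the other 7 inputs to RIPK1 and RIPK3, Ticam1, the adaptor TRIF, rose in CTR mice (2.13, adjusted p = 0.00122, edgeR), while its value in ELS mice was 1.53 (adjusted p = 0.0503) and the difference between the responses was -0.60 (adjusted p = 0.975). Tlr4, the LPS receptor, fell in both (-0.96 in CTR and -1.32 in ELS mice). Among 10 caspase cascade and gasdermin genes, Apaf1, the scaffold of the apoptosome, rose by 2.18 in CTR and 2.03 in ELS mice. Bid, a caspase-8 substrate, fell in CTR mice (-0.59), with a value of -0.47 in ELS mice (adjusted p = 0.0748, edgeR). None of 5 tested genes around NOD1, NOD2 and XIAP was called with LPS, against 8.73% of all genes higher and 6.2% lower in CTR mice (7.4% and 4.94% in ELS). Dstyk, a RIP kinase relative, fell in both (-0.88 and -0.93).

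With age, 13 of 56 rose and 4 fell in CTR mice, against 44.1% of all genes that changed, and 16 rose and 6 fell in ELS mice, against 42.2%. Both shares were below those of all genes, and the genes named here are a description. Of the 4 tested TNF family ligands, 3 rose in both (Ltb, Tnfsf10 and Tnfsf12), by 2.03 to 2.5 on the log2 scale. Traf5, an adaptor of TNF receptors, rose by 1.39 in CTR and 1.28 in ELS mice, and Tlr3, the receptor of double-stranded RNA, by 2.27 and 2.1.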

How the data were processed

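Per the labels and the study's methods, the authors used STAR with GRCm39 for alignment and HTSeq 0.11.0 for counting per gene (submitters' processing notes also name bcl2fastq 2.20 and cutadapt 2.10). The deposited values are raw counts per gene and mouse. The annotation release and strand setting are not given in the sources used here. Genes that reached 1 CPM in over 2 mice were kept (16696 of 53700), normalised by TMM and fitted with edgeR 4.0.16 (R 4.3.3) as 6 group means over all 50 mice. The quasi-likelihood test was used with Benjamini-Hochberg adjustment over all genes tested and a threshold of 0.05. CPM used TMM-scaled totals. SEs are log2 values, and single ratios were tested by exact permutation over mice (scipy 1.17.1). The method was tested on simulated data. The 10 members and all gene lists were chosen with earlier results of these data known. All members are described, with at most 3 genes per pathway list and comparison, those with the smallest adjusted p, and the 5 genes most correlated with Ripk1. DESeq2 1.42.0, limma 3.58.1, other filters and scaling, and leaving out single adult mice were tried. Labels give mice as separate animals. Gene positions are from GENCODE on GRCm39.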

Additional observations from a re-analysis of the deposited data

Results flagged for a closer look

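Among CTR-LPS mice, mouse P200_8.3_CTR_LPS stood apart for Ripk2, the kinase of the NOD pathway, with 34.0 CPM against 22.9 CPM in the next mouse. The gap was 0.608 of the range of the 7 mice, above Dixon's 95% critical value for that number. It was the 1 flag in 40 groups of a gene's values tested, and chance flags about 1 in 20 groups.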

How the results depend on the processing

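In the comparison of ELS with CTR mice given PBS, the count of members called went from 1 to 0 with DESeq2 size factors in edgeR, without a filter on low counts, with filterByExpr, with only the groups compared in the fit, and with limma voom with the label number as a random effect. Requiring an absolute log2 fold change above 1 left 1 member for LPS in CTR, 0 for LPS in ELS and 2 for age in CTR mice. The share of all genes under that rule was not computed. For age in CTR mice, limma voom called 3 members (Ripk1 and Tnfrsf1a were lost), and for age in ELS mice the fit of only the groups compared called 2. Of all 16696 genes tested, these fits called 7620 and 5826. Leaving out 1 adult mouse at a time gave 0 to 1 members for ELS against CTR with PBS. It gave 2 to 3 for LPS in CTR, 1 to 2 for LPS in ELS, 4 to 6 for age in CTR and 2 to 4 for age in ELS mice. No P9 mouse was left out singly, so the age calls were not tried in that way for the P9 groups. No all-gene share is given beside these counts, and they say nothing about the members as a set. No gene reversed its direction in a call. The all-gene count for ELS against CTR with PBS was 28, and it was 215 with the likelihood-ratio test, 178 with DESeq2, 6 with DESeq2 size factors, 2 without the filter and with filterByExpr, and 0 with only the groups compared and with voom.

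With the number before the point in the mouse label as a replicate block, over the 25 adult mice, 4 members were called for LPS in CTR mice (Tnfrsf1b was added, log2 fold change -0.66, adjusted p = 0.0446), 2 for LPS in ELS mice and 0 for the difference between them. Of all 16696 genes tested, that fit called 2161, 2123 and 0. The deviations of PBS and LPS mice sharing a number had a correlation between -0.0411 and 0.0841 over the 10 numbers (median 0.0355). Between different numbers the median was -0.0122. These low values cannot show that mice sharing a number are independent, and that was not tested. Results for Mlkl rest on few reads, with at most 32 counts in any adult mouse.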
